A study of Homo sapiens with 4 samples.

Results

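The glutathione peroxidase family was examined in the human colorectal carcinoma line HCT116 with and without the DNA methyltransferase inhibitor 5-aza-2'-deoxycytidine (decitabine). Its 8 human genes, GPX1 to GPX8, were taken by exact gene symbol from the probe-to-gene annotation of the array, in which 9 probe sets name them, and GPX1, the only gene with 2, was represented by the brighter one. They are 8 of 17958 genes tested. Vehicle cells (2 arrays) were compared with cells given the drug at 1 µM beginning 24 hours after seeding and again 48 hours later (2 arrays), with RNA from both groups taken 72 hours after the first dose. The labels do not say whether the samples of a group came from separate cultures, so the spread behind the p-values may be technical only.

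Glutathione peroxidases reduce hydrogen peroxide or lipid hydroperoxides to water or alcohols, usually at the expense of glutathione, which glutathione reductase then regenerates. In human cells GPX1, GPX2, GPX3, GPX4 and GPX6 carry selenocysteine in the active site, whereas GPX5, GPX7 and GPX8 carry cysteine. GPX1 is the widespread cytosolic enzyme, GPX2 the form of the gastrointestinal epithelium, GPX3 the secreted plasma form and GPX4 the phospholipid hydroperoxide enzyme that protects membranes from ferroptosis. GPX5 is an epididymal secreted form and GPX6 a form of the olfactory epithelium. GPX7 and GPX8 lie in the endoplasmic reticulum, where they use peroxide in the oxidative folding of proteins.

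Of the 8 genes, 3 rose, 1 fell and 4 did not pass the test. GPX7, GPX3 and GPX2 rose 19.9-fold, 10.00-fold and 5.37-fold, and GPX8 fell 1.57-fold. GPX1, GPX4, GPX5 and GPX6 did not pass. In RNA of whole cultures, a change in every cell and a change in some cells cannot be told apart. The test was limma's, fitted over all genes, and a gene is said to rise or fall where its adjusted p-value (Benjamini-Hochberg, 17958 genes) is under 0.05. With that rule 28% of all genes were called, 12.4% as higher and 15.6% as lower, against 4 of the 8 members. The median log2 fold change was 0.17 over the members and -0.07 over all genes. Rises of at least 4-fold, reached by GPX7, GPX3 and GPX2, were found for 1.93% of all genes, and rises of at least 16-fold, reached by GPX7, for 0.407%. The smallest p an exact permutation test can reach for a single gene here is 0.333, and the calls therefore rest on the variance that limma pools over genes.

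**Figure D1:**
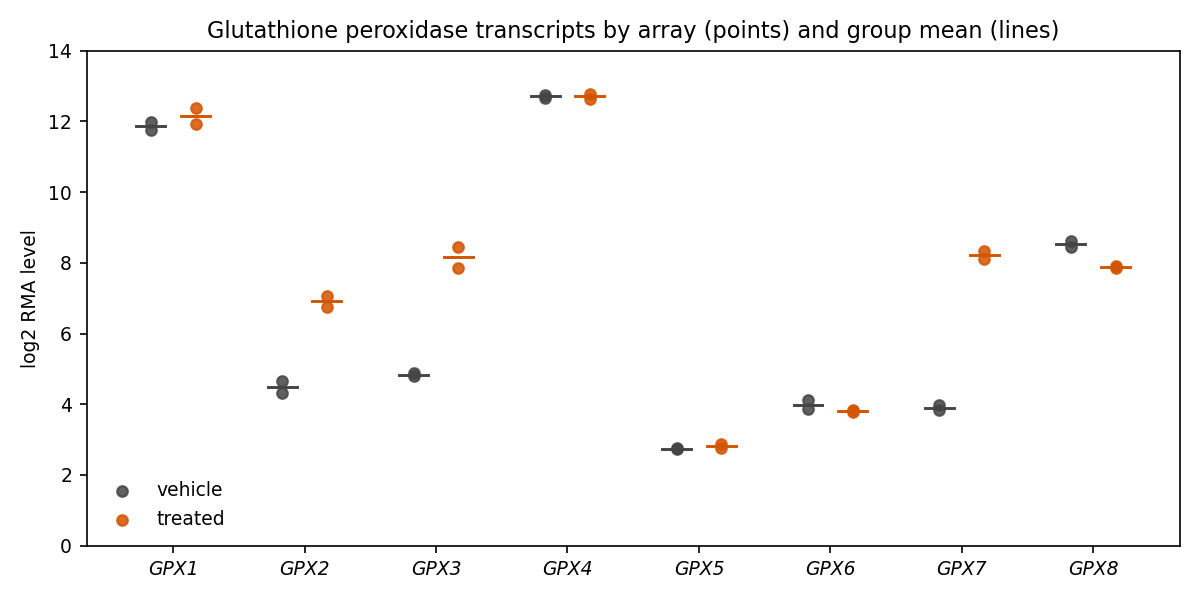
Log2 RMA level (vertical axis) of each glutathione peroxidase gene on the 2 vehicle arrays and the 2 treated arrays (points), with the mean of each group as a line. GPX2, GPX3 and GPX7 are well separated upwards and GPX8 downwards, while the points of GPX1, GPX4 and GPX5 overlap between the groups.

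The promoters of the 4 genes that were called are shown because the drug acts on the methylation of CpG dinucleotides. Each is the RefSeq window of GRCh38.p14 from 250 bases before to 50 bases after the annotated start, written 5′ to 3′ on the strand of the gene, with every CpG in capitals. The methylation of these sites was not measured here. The GPX7 window lies at chr1:52602121-52602420 (plus strand), that of GPX3 at chr5:151020341-151020640 (plus strand), that of GPX2 at chr14:64942696-64942995 (minus strand) and that of GPX8 at chr5:55159921-55160220 (plus strand).
GPX7: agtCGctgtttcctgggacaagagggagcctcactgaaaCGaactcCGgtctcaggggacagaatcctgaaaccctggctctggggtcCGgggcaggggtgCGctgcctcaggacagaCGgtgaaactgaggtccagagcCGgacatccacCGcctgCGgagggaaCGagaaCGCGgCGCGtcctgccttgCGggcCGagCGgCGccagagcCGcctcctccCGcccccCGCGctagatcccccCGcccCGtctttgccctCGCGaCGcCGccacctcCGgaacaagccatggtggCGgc
GPX3: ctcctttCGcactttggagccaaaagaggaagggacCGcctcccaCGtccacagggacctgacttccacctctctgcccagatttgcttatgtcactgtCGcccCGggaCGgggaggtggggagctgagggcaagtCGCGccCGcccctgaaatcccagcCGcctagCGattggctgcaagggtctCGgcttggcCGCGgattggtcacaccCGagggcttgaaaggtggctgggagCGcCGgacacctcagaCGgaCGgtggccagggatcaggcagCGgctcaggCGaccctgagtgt
GPX2: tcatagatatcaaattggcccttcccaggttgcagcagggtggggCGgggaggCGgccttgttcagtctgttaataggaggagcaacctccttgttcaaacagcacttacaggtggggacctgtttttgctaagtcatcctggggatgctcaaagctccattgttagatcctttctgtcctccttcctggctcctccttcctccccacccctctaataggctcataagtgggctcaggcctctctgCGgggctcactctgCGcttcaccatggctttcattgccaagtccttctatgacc
GPX8: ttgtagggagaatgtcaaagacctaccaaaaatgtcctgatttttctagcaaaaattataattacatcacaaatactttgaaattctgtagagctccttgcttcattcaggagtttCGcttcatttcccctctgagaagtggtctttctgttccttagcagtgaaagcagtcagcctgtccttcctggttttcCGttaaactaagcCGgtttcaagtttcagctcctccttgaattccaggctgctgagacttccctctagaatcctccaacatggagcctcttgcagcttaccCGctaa

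The 4 windows differed in CpG content, and the genes that rose lay on both sides of the median of all windows. The GPX7 window holds 30 CpG and the GPX3 window 21, whereas the windows of GPX2 and GPX8 hold 4 each. Over all 35116 RefSeq windows of this length the median was 14 CpG. Fewer CpG than in the GPX7 window were found in 77.6% of all windows, fewer than in the GPX3 window in 60.5%, and fewer than in the GPX2 and GPX8 windows in 24.5%. Among the genes that did not pass, GPX1 has 23 CpG, GPX6 has 4, the 3 listed windows of GPX4 have 39, 39 and 43, and those of GPX5 have 6, 6 and 0. Of the genes with windows above the median, GPX7 and GPX3 rose from vehicle means of 3.90 and 4.84. GPX1 and GPX4, with vehicle means of 11.87 and 12.71, did not pass. With 4 CpG each, GPX2 rose, GPX8 fell and GPX6 did not pass. Whether CpG content or the vehicle level bears on the response was not tested.

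**Figure D2:**
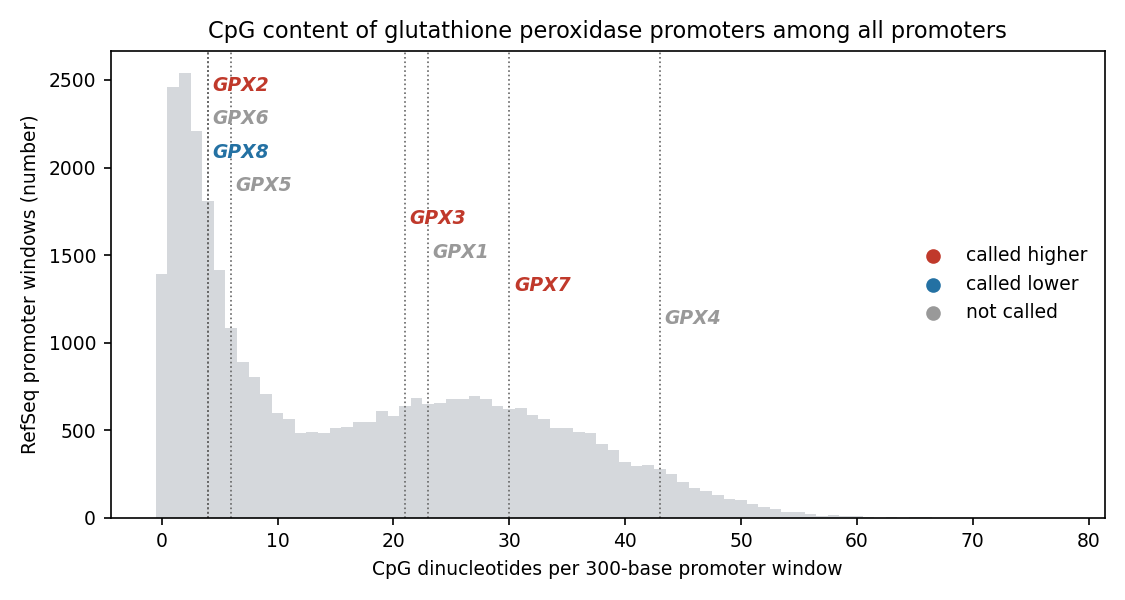
Number of RefSeq promoter windows (vertical axis) by the number of CpG dinucleotides in each window of 300 bases (horizontal axis), with dotted lines at the window of each glutathione peroxidase gene (the richest one for GPX4 and GPX5). GPX7 at 30 and GPX3 at 21 CpG rose, as did GPX2 at 4, where GPX8, which fell, and GPX6 also lie.

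The windows were also searched on both strands for the core of the antioxidant response element, TGACNNNGC, to which the stress-responsive factor NRF2 (NFE2L2) binds. A match was found in 13.3% of all windows and in 1 of the 12 windows of the 8 genes, which is no more than that share. The window is that of GPX2, which NRF2 is known to regulate, and binding was not tested. The match begins 122 bases before the annotated start and reads on the reverse strand, shown here in capitals with its flanks.
GPX2 match: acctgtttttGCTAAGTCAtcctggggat

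GPX7, the endoplasmic reticulum peroxidase with cysteine in its active site, had the largest change of the family. Its log2 levels were 3.83 and 3.98 on the vehicle arrays and 8.33 and 8.11 on the treated arrays. Both treated arrays were thus high and close together, and the gap between the nearest arrays of the groups was 4.12. The log2 fold change was 4.31 (SE 0.13, adjusted p = 5.56e-06; 95% interval of the fold 15.9 to 24.8), from 3.90 ± 0.11 to 8.22 ± 0.16 (SD, n = 2). Of all genes tested, 58 had a higher log2 fold change.

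GPX8, its close relative in the same compartment, moved the other way. Its log2 levels were 8.45 and 8.61 in vehicle and 7.87 and 7.91 in treated cells, so both treated arrays were below both vehicle arrays. The log2 fold change was -0.65 (SE 0.12, 95% interval -0.93 to -0.36, adjusted p = 0.00847). Without vehicle replicate 2 it was -0.57 and was not called (adjusted p = 0.0933; the alternatives ran from 0.00273 to 0.0933). The 95% intervals of GPX7 and GPX8 lie on opposite sides of 0, and the difference between these responses was not tested further.

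GPX3, the secreted plasma peroxidase, had log2 levels of 4.88 and 4.79 in vehicle cells. On the treated arrays they were 8.45 and 7.87. The treated arrays were both high but were 0.58 apart, the widest spacing of a pair among the 8 genes. The log2 fold change was 3.32 (SE 0.19, 95% interval 2.86 to 3.78, adjusted p = 6.22e-05), and 112 genes had a higher one.

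GPX2, the gastrointestinal peroxidase, which belongs to the lineage of this colorectal line, had log2 levels of 4.31 and 4.66 in vehicle cells and 7.07 and 6.75 in treated cells. Its arrays did not overlap between the groups either, with 2.09 between the nearest. The log2 fold change was 2.42 (SE 0.17, 95% interval 2.02 to 2.83, adjusted p = 0.000138), with 235 genes higher. Log2 fold changes of the 3 genes that rose ran from 2.25 to 2.60 for GPX2, from 3.03 to 3.61 for GPX3 and from 4.20 to 4.43 for GPX7 over 11 alternative settings, and all remained called. Detection calls are missing from the table, and whether their vehicle levels lay above background, near which RMA folds tend to be compressed, is unknown. The same holds for the other dim genes named below.

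GPX4, the membrane lipid peroxidase, had log2 levels of 12.66 and 12.76 in vehicle and 12.64 and 12.78 in treated cells. The spread within each group was larger than the difference between the group means, 12.710 and 12.708. The log2 fold change was -0.003 (SE 0.12, adjusted p = 0.989), and its 95% interval, -0.29 to 0.28, holds fold values from 0.818 to 1.22. Its sign turned with the setting, to 0.11 when the arrays were centred on housekeeping genes.

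GPX1, the cytosolic peroxidase, was named by 2 probe sets. On the brighter one the log2 levels were 11.75 and 12.00 in vehicle and 11.91 and 12.38 in treated cells, so that the lower treated array lay between the vehicle arrays. Its log2 fold change was 0.27 (SE 0.18, 95% interval -0.16 to 0.70, adjusted p = 0.315). Without treated replicate 1, the lower array, it was 0.50 and was called (adjusted p = 0.0449; the alternatives ran from 0.0449 to 0.870). On the other probe set the levels were 8.57 and 8.45 against 8.41 and 8.59, which is a difference of -0.01 (SE 0.13) in a fit over all probe sets. GPX1 has processed pseudogenes, and hybridization of their transcripts was not assessed.

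GPX5 and GPX6, the epididymal and olfactory forms, which are neighbours on chromosome 6, did not pass the test. For GPX5 the log2 levels were 2.72 and 2.75 in vehicle and 2.87 and 2.75 in treated cells, with a log2 fold change of 0.07 (SE 0.12, 95% interval -0.20 to 0.35). For GPX6 they were 3.85 and 4.12 against 3.83 and 3.78, with a log2 fold change of -0.18 (SE 0.13, 95% interval -0.50 to 0.14). The arrays of GPX6 did not overlap, by 0.02 only. Arrays that do not overlap between the groups were found for 5 of the 8 members and for 65.8% of all genes.

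**Figure D3:**
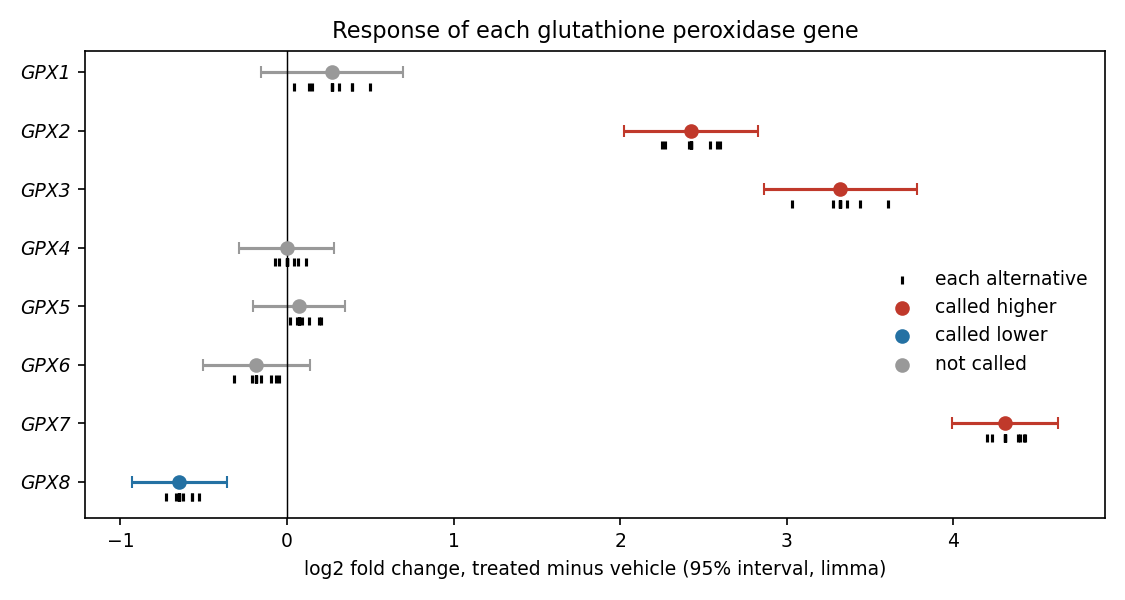
Log2 fold change, treated minus vehicle (horizontal axis), of each glutathione peroxidase gene with its 95% interval from limma (points and bars), coloured by the call, and the value under each alternative setting (ticks below). The intervals of GPX2, GPX3 and GPX7 lie above 2, that of GPX8 lies below 0, and those of the other 4 genes include 0.

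The direction of the 4 calls did not depend on the scaling of the arrays. Centring on 22 housekeeping genes moved the median gene from -0.07 to 0.05 and the balance of calls over all genes from 2229 higher and 2794 lower to 2850 and 1776. GPX7, GPX3 and GPX2 then had log2 fold changes of 4.43, 3.44 and 2.54, and GPX8 fell by 0.53 (limma adjusted p = 0.0204). Markers of the cell type were mixed. EPCAM, CDH1, KRT8, KRT18 and KRT19, genes of epithelial cells, had vehicle means between 10.23 and 13.01. Those of the colonic genes CEACAM5, CEACAM6 and VIL1 were between 3.78 and 4.31. The colonic genes CDX2, KRT20, CDX1 and LGALS4 had vehicle means of 7.92, 6.88, 5.71 and 5.13. Over all genes 12.4% rose and 15.6% fell, and of the 12 markers of colon epithelium 4 rose, 1 fell and 7 did not pass. The median log2 fold change of these 12 markers was 0.25, beside the rise of GPX2. The rises were of KRT20 (5.10-fold), LGALS4 (3.40-fold), CDX2 (1.63-fold) and KRT18 (1.36-fold), and EPCAM fell 1.64-fold. Among 22 markers of other cell types (fibroblasts, endothelium, leukocytes) there were 8 rises and 1 fall beside the rises of GPX3 and GPX7. The other 13 markers did not pass, and the median log2 fold change of the 22 was 0.22. The rises were of the fibroblast genes THY1 (8.89-fold), COL1A1 (1.54-fold) and PDGFRA (1.44-fold), the endothelial gene PECAM1 (3.46-fold) and the leukocyte genes CD3D (3.47-fold), CD68 (2.88-fold), CD14 (2.27-fold) and CD3E (1.89-fold), and the endothelial receptor gene KDR fell 1.46-fold. The leukocyte gene PTPRC (3.02 and 3.12), the fibroblast collagens COL1A2 (4.74 and 4.85) and COL3A1 (4.40 and 4.37) and the endothelial cadherin CDH5 (4.31 and 4.49) did not pass, the values being vehicle and treated means. The part of either marker list in the results for the family was not tested.

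The genes next to the members on the chromosomes were compared in the same fit. By the order of the RefSeq gene table, the nearest tested gene on each side was taken for every member, which gave 14 genes outside the family, of which 2 rose, 1 fell and 11 did not pass, beside 28% called among all genes. GPX7 lies between TUT4, a terminal uridylyltransferase (log2 fold change -0.52, adjusted p = 0.0526), and SHISAL2A (0.42, adjusted p = 0.203). GPX3 lies between the pseudogene ZNF300P1 (0.30) and TNIP1, an inhibitor of NF-κB signaling (0.23). No gene of either pair passed in the fit used for the calls above. TUT4 was called in 4 of the 11 alternatives (limma adjusted p down to 0.00734), one of them without treated replicate 1 (log2 fold change -0.69, adjusted p = 0.0182). ZNF300P1 was called in 2 of the 10 in which it was tested, one of them also without treated replicate 1 (0.43, adjusted p = 0.0437), and SHISAL2A in 1 of 10, the replicate block (adjusted p = 0.0187). The value of SHISAL2A ran from 0.17 to 0.67 with 1 array left out. GPX2 lies between CHURC1, which fell by 0.47 (adjusted p = 0.0346), and RAB15, a small GTPase, which rose by 0.73 on the log2 scale (adjusted p = 0.00747). With 1 array left out, CHURC1 kept its call in the fit without treated replicate 1 only, and RAB15 lost its call without vehicle replicate 1 (adjusted p between 0.0570 and 0.209). GPX8 overlaps CDC20B in the gene table (0.12, adjusted p = 0.543), with CCNO, a cyclin of multiciliated cells, on the other side (0.30, adjusted p = 0.106). CCNO was called in 1 of the 11 alternatives. The largest change of a neighbour was that of SCAND3, next to GPX5, which rose from 3.60 to 6.26 (log2 fold change 2.66, adjusted p = 3.55e-05), while GPX5 and GPX6 did not pass. ZSCAN23, on the other side of this pair, had a log2 fold change of 0.38 (limma adjusted p = 0.0503). It was called in 3 of the 10 alternatives in which it was tested.

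**Figure D4:**
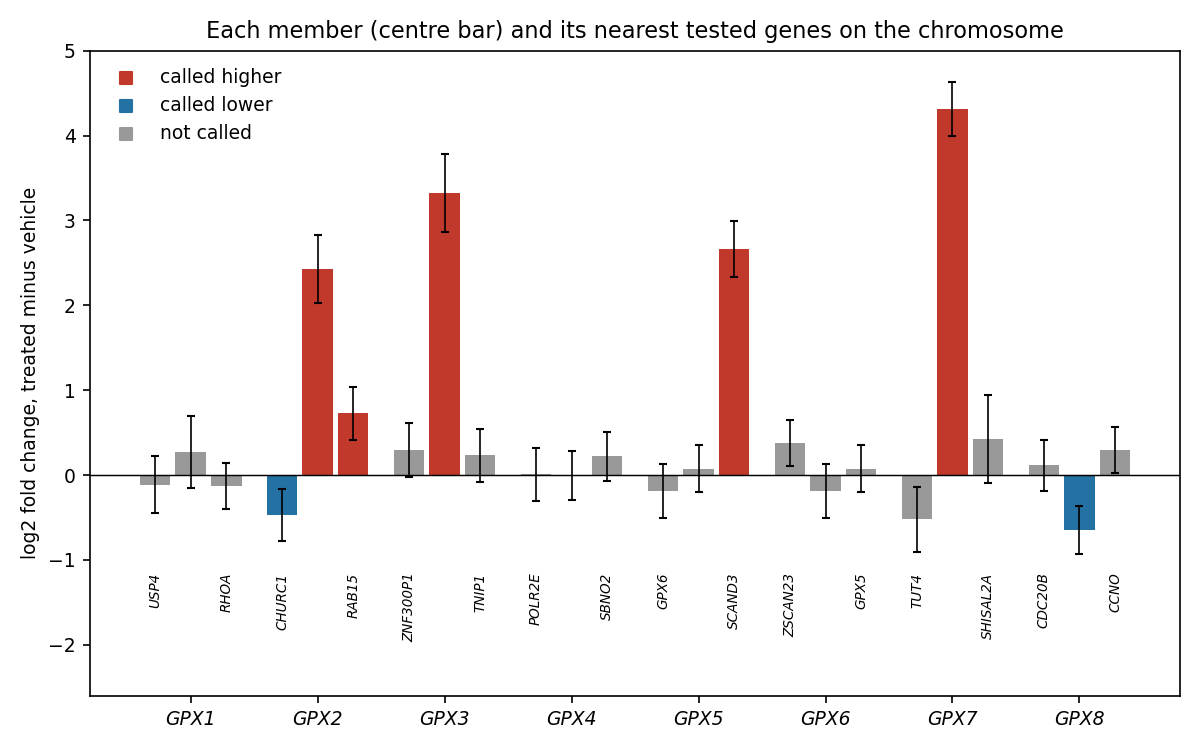
Log2 fold change, treated minus vehicle (vertical axis), of each glutathione peroxidase gene (centre bar of each group) and of the nearest tested gene before and after it on the chromosome (side bars, named below), with 95% intervals. The bars of GPX7 at 4.31 and GPX3 at 3.32 stand between genes that were not called in this fit, although TUT4, SHISAL2A and ZNF300P1 were each called in 1 or more alternatives, and SCAND3 at 2.66 stands beside GPX5 at 0.07.

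The genes whose pattern over the 4 arrays was closest to that of a member were taken by Euclidean distance between log2 values centred on each gene's mean. Closest to GPX7 were ERVH48-1, a gene derived from an endogenous retrovirus (distance 0.11), PAGE1, a cancer/testis antigen (0.14), and RAB41, a Rab GTPase (0.22), with log2 fold changes of 4.24, 4.39 and 4.35. Closest to GPX8 were the ubiquitin ligase gene RNF144A (0.015), the centriole gene RTTN (0.020) and the immune checkpoint ligand gene VTCN1 (0.039), with log2 fold changes of -0.65, -0.64 and -0.65. The genes were chosen by array values like those of GPX7 or GPX8, so their similar fold changes follow from the choice. The 3 genes closest to GPX8 lost their calls, as it did, without vehicle replicate 2, where fewer of all genes were called.

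The glutathione supply list holds genes of the making, transport, breakdown and recycling of glutathione, the substrate of most of these enzymes. A rise in it need not mean more supply. Among its 21 tested genes 7 rose and 5 fell, beside 12.4% and 15.6% of all genes. The median log2 fold change of the list was -0.16. ANPEP, an aminopeptidase that cleaves cysteinylglycine, rose 17.5-fold, from a vehicle mean of 4.54. CBS, the first enzyme of cysteine synthesis from homocysteine, rose 6.93-fold, from 5.07 ± 0.16 to 7.87 ± 0.12 (SD, n = 2). CHAC1, which degrades glutathione, rose 2.66-fold. The falls were of GGCT, which acts on the products of glutathione breakdown (2.10-fold lower), the mitochondrial carrier gene SLC25A40 (1.96-fold), the cystine transporter gene SLC7A11 (1.91-fold), the NADPH source IDH1 (1.42-fold) and the glutathione synthetase gene GSS (1.39-fold). Fewer genes of the list were called without either vehicle replicate, and more fell without treated replicate 1. The calls over all genes moved in the same way, so these shifts are no result about the list. GSS and IDH1 were among the calls lost, whereas ANPEP, CBS, CHAC1, GGCT, SLC25A40 and SLC7A11 kept theirs.

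Glutathione transferases, which conjugate glutathione to other compounds, included 2 rises and 7 falls among 21 tested, beside 12.4% and 15.6% of all genes. The list median was -0.32. GSTM3 rose from 3.27 ± 0.37 to 6.96 ± 0.11 (SD, n = 2), 12.9-fold, and GSTM2 rose 1.44-fold. Whether the vehicle level of GSTM3 lay above background is unknown, so the fold is the one on this scale, and GSTM3 is not tested when the dimmest 33.3% of genes are left out. Members of the GSTM group are similar in sequence, and hybridization between them was not assessed. GSTO2 fell 1.68-fold, GSTZ1 1.58-fold and GSTK1, the mitochondrial and peroxisomal form, 1.53-fold. Without either vehicle replicate fewer genes of the list were called, as was so over all genes. GSTM3 and GSTO2 kept their calls in all 4 fits with 1 array left out.

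Among 22 genes of other peroxide-removing systems, 3 rose and 2 fell (median -0.07), beside 12.4% and 15.6% of all genes. TXNIP, which binds and inhibits thioredoxin, rose from 3.57 ± 0.25 to 8.15 ± 0.36 (SD, n = 2) (log2 fold change 4.59, SE 0.20). SESN2, a stress-induced sestrin, rose 1.70-fold and the glutaredoxin gene GLRX 1.59-fold. CAT, which encodes catalase, the peroxisomal enzyme that removes hydrogen peroxide without glutathione, fell 1.72-fold, and GLRX5, a mitochondrial glutaredoxin, fell 1.52-fold. Of the fits with 1 array left out, GLRX5 kept its call only in the one without treated replicate 1. GLRX was not called without vehicle replicate 1, nor SESN2 without vehicle replicate 2 (limma adjusted p = 0.0885 and 0.0533). For GLRX the mean of its probe sets gave a log2 fold change of 0.32 in place of 0.67 and no call.

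Selenoproteins and the factors that build selenocysteine into proteins, on which GPX1 to GPX4 and GPX6 depend, made up 27 tested genes. Of these, 4 rose and 6 fell (median -0.11), beside 12.4% and 15.6% of all genes. SELENOP, the secreted selenium carrier, fell 3.41-fold, from 8.37 ± 0.06 to 6.60 ± 0.36 (SD, n = 2). SEPSECS, which makes selenocysteine on its tRNA, fell 1.68-fold, SCLY, which releases selenium from selenocysteine, 1.59-fold, and LRP8, a receptor for SELENOP, 1.46-fold. The rises were small: SELENOM (1.51-fold), SELENOS (1.32-fold), SECISBP2L (1.32-fold) and TRNAU1AP (1.30-fold). Fewer genes of the list were called without either vehicle replicate, as was so over all genes. Without treated replicate 1 fewer genes of the list rose, while over all genes more rose. SELENOP kept its call in all 4 fits with 1 array left out, and SEPSECS, SCLY and LRP8 lost theirs in at least 1.

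Genes of oxidative protein folding in the endoplasmic reticulum, the process that GPX7 and GPX8 take part in, made up 25 tested genes. Of these, 1 rose and 5 fell (median -0.11), beside 12.4% and 15.6% of all genes. The falls were of the protein disulfide isomerase family genes PDIA6 (1.70-fold lower), TXNDC12 (1.56-fold), TMX3 (1.50-fold) and ERP29 (1.49-fold) and of the sulfhydryl oxidase gene QSOX2 (1.46-fold). PDIA2, another disulfide isomerase gene, rose 1.37-fold. Fewer genes of the list were called without either vehicle replicate, and more fell without treated replicate 1. Over all genes the calls moved in the same way. The call of PDIA2 was lost in 3 of the 4 fits with 1 array left out, being kept without treated replicate 1.

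Of 25 other genes of ferroptosis, the lipid peroxide death that GPX4 prevents, 6 rose and 6 fell, beside 12.4% and 15.6% of all genes. The list median was 0.03. The lipoxygenase genes ALOX12 and ALOX15B, whose products oxidize polyunsaturated lipids, rose 4.61-fold and 2.05-fold, from vehicle means of 4.64 and 5.45. DHODH, a mitochondrial enzyme that also reduces ubiquinone, fell 3.04-fold, with treated arrays that spread by 0.51 (SD, n = 2), and the iron transporter gene SLC11A2 fell 2.23-fold. These 4 genes kept their calls with any 1 array left out. Fewer genes of the list were called without either vehicle replicate, and fewer fell without treated replicate 2. Both were so over all genes too.

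Of 23 genes of the NRF2 pathway, whose factor acts on GPX2, 1 rose and 4 fell, beside 12.4% and 15.6% of all genes. The list median was -0.22. Besides SLC7A11, the falls were of ABCC2, an export pump for glutathione conjugates (3.43-fold lower), PIR (1.73-fold) and the quinone reductase gene NQO1 (1.39-fold). HMOX1, heme oxygenase, rose 1.50-fold. That call was also lost in all fits with 1 array left out but the one without treated replicate 1. In that fit more genes of the list fell, as was so over all genes. NQO1 was not called without vehicle replicate 1 (adjusted p = 0.173). Its call was also lost without vehicle replicate 2 (0.191) and without treated replicate 1 (0.0641). Some genes stand in more than 1 of these lists, so the counts are not independent.

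**Figure D5:**
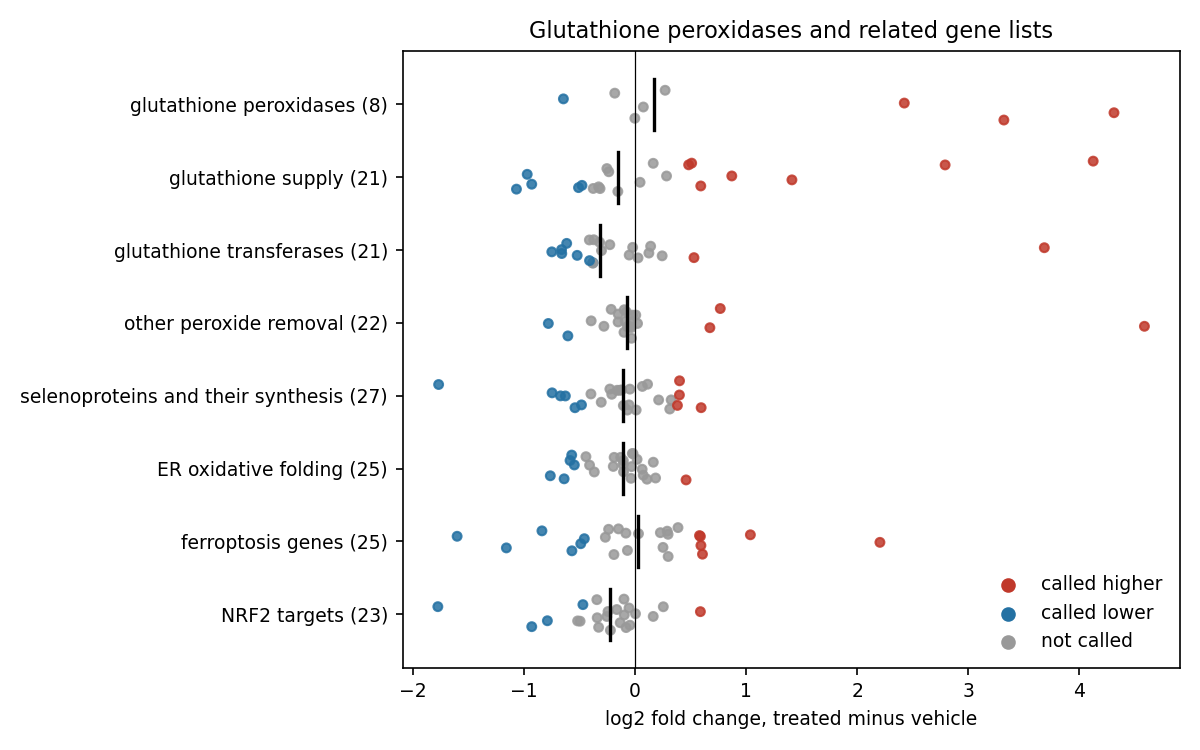
Log2 fold change, treated minus vehicle (horizontal axis), of every tested gene of the glutathione peroxidase family and of 7 related lists (rows, number of tested genes in parentheses), coloured by the call, with the median of each list as a black line. In all 7 related lists points lie on both sides of 0, and their medians run from -0.32 to 0.03.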

How the data were processed

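Total RNA of 4 HCT116 samples was hybridized to Affymetrix arrays. The deposited table holds log2 values of 33297 probe sets, which the authors produced in Affymetrix Expression Console by RMA, per the submitters' processing notes. No version, probe set definition or build is named (not given in the sources used here). RMA quantile normalizes the arrays, which hides any change in the total RNA of a cell, and the number of arrays limits the precision. Array medians were 5.73, 5.72, 5.84 and 5.84.

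A platform annotation table named 19181 probe sets by 1 symbol and 2055 by several; others are unnamed here. The fit used limma 3.58.1 in R 4.3.3 (lmFit, eBayes, no covariate, no filter on dim genes) and was tested on simulated data. Of the tested genes, 17927 matched the RefSeq table (GRCh38.p14), used for gene order. Alternatives were a replicate block, 2 other scalings, leaving out the dimmest 33.3% of genes, a variance trend, mean probe sets, all probe sets and leaving out each array.

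The members and lists were chosen with earlier results of these data known. Named genes were the members, up to 4 genes of each of the 7 lists by smallest p-value, all called genes of a direction with at most 5 calls in the list, the neighbours, and the 3 closest patterns.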

Additional observations from a re-analysis of the deposited data

How the results depend on the processing

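The rises of GPX2, GPX3 and GPX7 kept their direction and call under all 11 alternatives, and the 3 rises became 4 without treated replicate 1, where GPX1 was added. The fall of GPX8 was kept under 10 of them; without vehicle replicate 2 no member fell (1 at an unadjusted p under 0.05, limma). Log2 fold changes with 1 array left out ran from 0.039 to 0.50 for GPX1, from -0.073 to 0.068 for GPX4 and from -0.72 to -0.57 for GPX8. GPX4 had values of 0.11 with housekeeping centring and 0.00033 after repeated quantile normalization, both opposite in sign to the main value and not called.

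The labels number the samples 1 and 2 in both groups without saying that a number marks a shared culture or batch. Over genes, the difference between the numbers correlated at 0.27 between vehicle and treated arrays, and with 2 pairs this settles no pairing. A fit with the replicate block called 37% of all genes against 28%, kept the member calls at 3 rises and 1 fall (GPX8 adjusted p = 0.00273), and gave 8 falls in the folding list and 7 in the NRF2 list.

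The other list counts moved as follows. Housekeeping centring, with 25.8% of all genes called, gave 3 falls for glutathione supply, 4 for transferases, 1 for other peroxide removal and 3 for ferroptosis genes. Repeated quantile normalization (27.7% of all genes called) gave 1 fall for other peroxide removal. It gave 0 rises for folding (1 at an unadjusted p under 0.05, limma). The mean over probe sets (27.8% called) gave 1 fall for other peroxide removal. Without the dimmest 33.3% of genes, 37.2% of the genes tested were called. There were then 1 rise of a transferase and 0 of folding genes (0 unadjusted), and GPX5 and GPX6 were not tested. A fit over all probe sets, which changes both the pooled variance and the adjustment, called 16.2% of genes. It gave 3 falls for glutathione supply, 1 rise and 3 falls for transferases and 1 fall for other peroxide removal. Selenoproteins and folding genes each had 0 rises and 3 falls, and ferroptosis genes had 3 rises and 3 falls. NRF2 targets had 0 rises. The 0 counts were 5, 1 and 1 at an unadjusted p under 0.05 (limma). The causes were not tested. With 1 array left out, rises and falls ranged from 4 to 8 and 3 to 8 for glutathione supply, 1 to 2 and 1 to 6 for transferases, 2 to 3 and 1 to 2 for other peroxide removal, 0 to 3 and 1 to 8 for selenoproteins, 0 to 1 and 0 to 8 for folding, 2 to 6 and 3 to 7 for ferroptosis genes, and 0 to 1 and 3 to 7 for NRF2 targets.

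For the 60 named genes outside the family, 551 of 652 values under an alternative kept direction and call, 86 lost the call, 11 gained one and 4 changed sign. Those 4 were values of neighbours that were not called, USP4 (0.0058 with housekeeping centring, and from -0.27 to 0.050 with 1 array left out) and POLR2E (from -0.11 to 0.13 with 1 array left out).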
